A study of Homo sapiens with 4 samples.

Results

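The 10 human genes that encode the alpha-1 subunit of voltage-gated calcium channels were searched for NRSF/REST-binding sites in adrenocortical cells at a basal and at an increased SF-1 dosage. The members were taken from a list of gene symbols (CACNA1A, CACNA1B, CACNA1C, CACNA1D, CACNA1E, CACNA1F, CACNA1G, CACNA1H, CACNA1I and CACNA1S), out of 20175 protein-coding genes of GENCODE release 44 mapped to hg19. A site was assigned to a gene when any of its bases lay in the gene or within 10 kb of it. This gave 16 of the 5323 sites in the basal list and 15 of the 5059 in the list of the increased dosage.

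Both libraries came from H295R/TR SF-1 cells, a clone of the human adrenocortical carcinoma line H295R in which doxycycline switches on additional SF-1 (NR5A1), the nuclear receptor that governs steroid-producing tissue. An antibody to NRSF/REST (Millipore) was used for ChIP-seq on cells without doxycycline (basal SF-1 dosage) and on cells kept in doxycycline for 3 days (increased SF-1 dosage). The labels give the doxycycline concentration as 1 mg/mL and the methods give it in µg/ml. With 1 library at each dosage there are no replicates, and every difference given is one between these libraries, not a test of the dosage. The authors called sites in each library. The 2 input DNA libraries of the series carry no dosage and were not analysed here. The deposited score is 1000 for every site, and no read counts are given, so the depth is unknown. What remains for each site is its position, its width and its order number, the place of the site in the deposited list. Sites early in the list were wide: the median width was 899 bp over the first 500 sites and 99 bp over the last 500 at each dosage. Over all sites order number and width had a Spearman rho of -0.95 in both lists, given as a description.

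NRSF/REST is a zinc-finger repressor that keeps neuronal genes silent outside the nervous system by binding a long composite DNA element and recruiting histone deacetylases and other corepressors. The alpha-1 subunit forms the pore and the voltage sensor of a calcium channel and so decides the channel's type. P/Q-, N- and R-type channels (CACNA1A, CACNA1B and CACNA1E) sit mostly in neurons, where they trigger transmitter release. L-type channels (CACNA1C, CACNA1D, CACNA1F and CACNA1S) couple excitation to contraction, hormone secretion and transcription in heart, muscle, endocrine cells and retina. T-type channels (CACNA1G, CACNA1H and CACNA1I) open at weak depolarisation and pace rhythmic activity, and CACNA1H is known in the adrenal cortex for its part in aldosterone production.

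The sequences below carry the comparison, because they are the stretches in the members' sites that match the NRSF/REST consensus, searched on both strands as CTGTCCNNGGTGCTG (13 fixed bases, N any base) with at most 2 mismatches. Each is read from hg19 with 4 bases before and 2 bases after the consensus, 21 bases in all, in the direction of the consensus. Capitals mark the bases that equal a fixed base of the consensus, and sites are numbered from the 5′ end of the gene.
CACNA1A site 2 (chr19:13604529-13604549, minus strand): atctCTGTCCaaGGTtCTGat
CACNA1A site 3 (chr19:13574314-13574334, minus strand): gccgCTGgCCgtGGTGCTGaa
CACNA1A site 4 (chr19:13552875-13552895, plus strand): ggagCTGTCCagGGTGCTGaa
CACNA1B site 1 (chr9:140773239-140773259, plus strand): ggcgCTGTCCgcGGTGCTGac
CACNA1B site 3 (chr9:140779188-140779208, plus strand): ggcgCTGTCCatGGTGCTGag
CACNA1B site 4 (chr9:140785415-140785435, plus strand): gtctCTcTCCgtGGTGCTGat
CACNA1E site 1 (chr1:181455049-181455069, minus strand): ggcgCTGTCCgaGGTGCcaac
CACNA1E site 3 (chr1:181734950-181734970, minus strand): ggaaCTGgCCttGGTaCTGga
CACNA1F site, first match (chrX:49056482-49056502, minus strand): gaccCgGTCCccGGcGCTGgg
CACNA1F site, second match (chrX:49056581-49056601, plus strand): ggctCTGTCCacGGTGCTGga
CACNA1G site (chr17:48709426-48709446, plus strand): ggcaCTGTCCtgGGTGCTGag
CACNA1H site 2, first match (chr16:1238214-1238234, plus strand): tgggCgGTCCtgGGaGCTGat
CACNA1H site 2, second match (chr16:1238874-1238894, minus strand): gctgCTGTCCatGGTGCTGaa

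At the basal dosage 6 of the 10 genes had a site, and at the increased dosage 6 of 10 did, against 13.9% and 13.6% of all protein-coding genes. They were CACNA1A, CACNA1B, CACNA1E, CACNA1F, CACNA1G and CACNA1H at each dosage. No site was called in or within 10 kb of CACNA1C, CACNA1D, CACNA1S or CACNA1I at either dosage. Only CACNA1A, CACNA1B, CACNA1E and CACNA1H had a site inside the gene itself. The sites at CACNA1F and CACNA1G lay beyond the 3′ end, by 4674 bp and 4516 bp. Sites of both lists that overlap were counted as 1 locus, which left 18 loci, 13 of them called at both dosages, 3 at the basal dosage only and 2 at the increased dosage only.

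**Figure D1:**
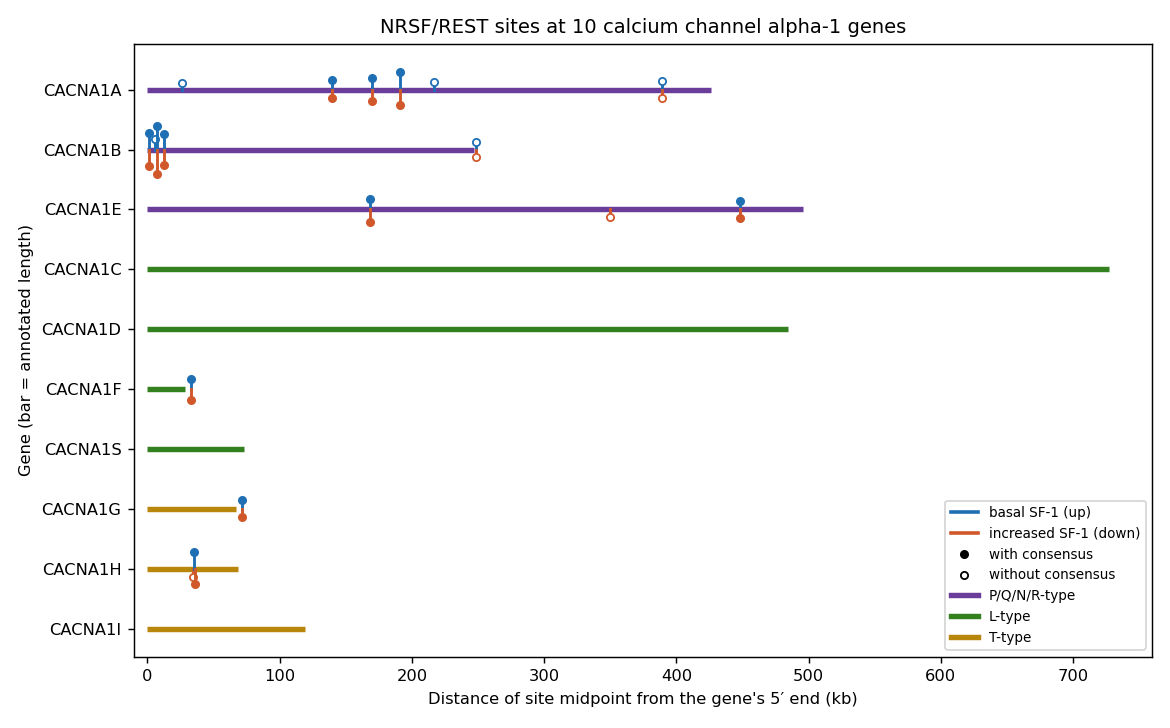
Position of each site (distance of its midpoint from the gene's 5′ end, in kb) along the 10 genes, drawn as bars of their annotated length. Stalks rise for the basal and fall for the increased SF-1 dosage and are longer for wider sites, and filled circles mark sites with the consensus. CACNA1A, CACNA1B and CACNA1E carry several sites each, and the bars of CACNA1C, CACNA1D, CACNA1S and CACNA1I carry none.

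CACNA1B, which encodes the pore of the N-type channel, held the widest site of the family. Of its 5 basal sites, 4 lay close to the start of this 247-kb gene, within 12999 bp from the first to the last base over both lists, and 3 of these were called at both dosages. Site 1 ran from 140772851 to 140773949 of chromosome 9 at the basal dosage, 1099 bp wide and 118th in the list. At the increased dosage it was 1149 bp wide and 122nd. Its midpoint lay 1.17 kb after the annotated start, in intron 1, and the site also covered 106 coding bases of exon 2. Site 3, in intron 3 at 7.19 kb, was the widest of all member sites, at 1849 bp (order number 40) at the basal and 1899 bp (order number 34) at the increased dosage, and 99.9% of each list was narrower. Site 4, also in intron 3, from 140784701 to 140785699, was 999 bp wide at both dosages, with order numbers of 454 and 324. An antisense lncRNA gene without a symbol also spans these sites, and site 4 lay 1.82 kb from its start.

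Each of these 3 wide CACNA1B sites held 1 match to the consensus on the strand of the gene. The matches of sites 1 and 3 were free of mismatches, and that of site 4 had the substitution G3C (the consensus base stands first, and position 1 is where the consensus begins). Site 2, from 140777751 to 140778249, was called at the basal dosage only, 499 bp wide, late in the list at 3946, 201 bp from the increased-dosage interval of site 3, and without the consensus. Site 5, from 141020801 to 141020949 in the basal list, lay 1725 bp beyond the 3′ end. It was narrow, 149 bp and 199 bp wide, and held no consensus. Only 12.7% of its 32-base words in the basal interval and 20.2% in the increased-dosage interval occurred once in the genome, which means that most of it has copies elsewhere. In every other member site at least 83.8% of such words occurred once.

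By summed width CACNA1B stood in second place among the 2805 protein-coding genes with a basal site, with 4595 bp, and in place 4 among 2736 at the increased dosage, with 4246 bp. The genes closest to it in summed width over both dosages, out of 2106 genes with sites at both, were ASIC2, GRIK3 and TMEM178B, with summed absolute log2 differences of 0.21, 0.38 and 0.38. ASIC2 encodes an acid-sensing sodium channel and GRIK3 a kainate-type glutamate receptor subunit. ASIC2 reached 4241 bp with 9 basal sites in 1162 kb, while GRIK3 reached 3845 bp with 5 basal sites in 239 kb, a length close to that of CACNA1B.

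CACNA1A, the pore of the P/Q-type channel, had the most sites of the family at the basal dosage, 6. At the increased dosage it had 4, the same number as CACNA1B. As many or more were found at 22 protein-coding genes (0.11%) and 77 genes (0.38%), respectively. The MANE Select transcript, the reference transcript of the annotation, starts at 13617293 of chromosome 19, well inside the annotated gene (13317256 to 13743839, minus strand). Sites 2, 3 and 4 followed that start in introns 1, 1 and 3, at 12.8, 43.1 and 64.3 kb in the basal list. These 3 sites were called at both dosages and were the ones with the consensus. Site 4, from 13552401 to 13553649, was 1249 bp wide in the basal list and 999 bp in the other, with order numbers of 517 and 519, and its match had no mismatch. Site 3 was 649 bp and 599 bp wide, with order numbers of 540 and 498, and its match had T4G. Site 2 was narrower, 349 bp and 249 bp, at 2255 and 2897 of the list, with G12T.

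The other 3 sites of CACNA1A held no match. Site 6, in intron 31 near the 3′ end of the gene (13354801 to 13355099), was 299 bp wide at both dosages. Its best alignment had 3 mismatches, and the parts CTGTCC and GGTGCTG, each allowed 1 mismatch, stood there in the order of the consensus at distances of 1, 8 and 18 bases in place of 2. In CACNA1A site 5 and CACNA1B site 2 they stood 17 bases apart. Sites with a match held such spacings too. In the basal list they stood in 3 of the 5 member sites without the consensus and 5 of the 11 with it. The shares over all such basal sites were 24.8% and 34.8%. At the increased dosage the counts were 1 of 4 and 5 of 11, against 24.1% and 35.3%. Sites 1 and 5 were called at the basal dosage only. They were 99 bp and 199 bp wide, from 13717851 to 13717949 and from 13526601 to 13526799, and stood late in the list, at 4737 and 3573. Site 5 lay in intron 3. Site 1 lay 101 kb upstream of the MANE Select start, within the longer annotated gene.

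CACNA1E, the pore of the R-type channel, had 2 basal sites and 3 at the increased dosage. Site 1 lay in intron 1, 2.40 kb after the MANE Select start, and was 499 bp wide at the basal and 649 bp at the increased dosage, at 1333 and 1317 of the list. Its match departed from the consensus at the end, with T14C and G15A. Site 3, in intron 34, was 299 bp wide at both dosages, at 3329 and 2662, and its match had T4G and G12A. Site 2, in intron 7, was called at the increased dosage only, from 181636451 to 181636599 of chromosome 1, 149 bp wide, at 4141, and without the consensus. None of the CACNA1E sites held a match with fewer than 2 mismatches.

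CACNA1H was the only T-type gene with a site inside it. Site 2, in intron 2 at 35.6 kb from the start, was 1199 bp wide in the basal list and 949 bp in the other, with order numbers of 403 and 378. It held a match without mismatch on the strand opposite to the gene at both dosages. The other match, printed first above, with T2G and T11A, lay only in the basal interval, which began at 1238151 of chromosome 16, against 1238401 at the increased dosage. Site 1 was called at the increased dosage only, from 1237801 to 1237999, 199 bp wide, at 3808 of the list and 151 bp from the basal interval of site 2, and it held no match. CACNA1H thus had more sites at the increased dosage, 2 against 1, over a summed width that was slightly smaller, 1148 bp against 1199 bp.

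CACNA1G, another T-type gene, had its site downstream of the gene from 48709351 of chromosome 17, 299 bp wide at the basal and 249 bp at the increased dosage, at 2761 and 2673 of the list. The match there had no mismatch. This site lay 199 bp from the start of a lncRNA gene without a symbol and 2.64 kb from the start of ABCC3, which encodes a transporter of organic anions. For CACNA1I, the last T-type gene, the nearest site was 24.5 kb upstream, 749 bp wide at the basal and 849 bp at the increased dosage, and so outside the 10-kb limit.

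Among the L-type genes a site was assigned to CACNA1F alone, and it lay in another gene. Its midpoint was 102 bp from the start of SYP, in intron 1, on the other side of the 3′ end of CACNA1F, and it also overlapped the antisense lncRNA gene SYP-AS1. SYP encodes synaptophysin, a membrane protein of synaptic vesicles. The site was 499 bp wide at the basal and 549 bp at the increased dosage, at 645 and 687 of the list, and held a match without mismatch and a second one with T2G and T11C. CACNA1C spans 727 kb and CACNA1D 485 kb, and CACNA1S spans 72.9 kb. The sites closest to CACNA1C lay 54.2 kb beyond its 3′ end at the basal and 53.6 kb at the increased dosage. Among them was a site 1649 bp and 1349 bp wide that stood in place 4 of both lists, in the lncRNA gene ITFG2-AS1. For CACNA1D the closest site lay 72.8 kb upstream of the gene at the basal dosage, in TKT.

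Compared by channel type, the P/Q/N/R-type genes held 12 basal sites inside 1169 kb of summed gene length, or 1.03 per 100 kb. The T-type genes held 1 in 254 kb, or 0.393 per 100 kb, and the L-type genes held 0 in 1313 kb. At the increased dosage the P/Q/N/R-type genes held 10 sites, or 0.855 per 100 kb, the T-type genes 2, or 0.786, and the L-type genes again 0. Both of these T-type sites were in CACNA1H, and its site 1 was 199 bp wide and called at that dosage only. With sites within 500 bp merged, the T-type sites in or within 10 kb of a gene fell from 3 to 2 at that dosage. The P/Q/N/R-type sites fell from 13 to 12 at the basal dosage, and the other counts by type did not change. Over the bodies of all protein-coding genes the density was 0.200 per 100 kb at the basal and 0.191 at the increased dosage. With 3 or 4 genes in a type and 1 library at each dosage, the order of the types was not tested.

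Longer genes hold a site more often, so the members were also read against genes of like length. Of the 324 protein-coding genes over 500 kb, 66.4% had a basal site and 64.2% a site at the increased dosage, and CACNA1C was among those without. Among the 748 genes from 250 to 500 kb the shares were 42.0% and 40.2%, and here CACNA1A and CACNA1E had sites and CACNA1D had none. In this class 2.27% of genes had 4 or more basal sites, among them CACNA1A. From 100 to 250 kb, with CACNA1B and CACNA1I, 23.7% of 2594 genes had a site at each dosage and 0.617% had 4 or more at the basal dosage. From 50 to 100 kb, the class of CACNA1G, CACNA1H and CACNA1S, the shares were 13.7% and 13.5%. Under 50 kb, where CACNA1F falls, they were 9.22% and 8.91%.

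**Figure D2:**
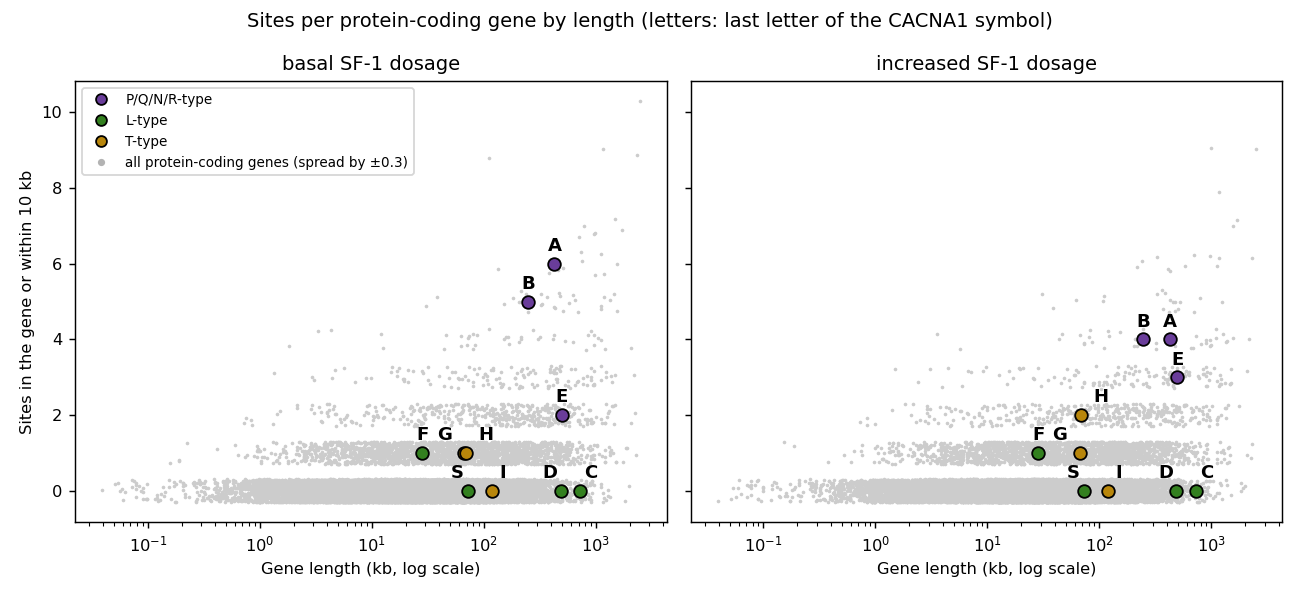
Number of sites in each protein-coding gene or within 10 kb of it against gene length (kb, log scale), with the basal list on the left and the increased-dosage list on the right, 1 grey point per gene. Large points are the 10 members, coloured by channel type and marked with the last letter of their symbol. CACNA1A with 6 and CACNA1B with 5 basal sites lie above nearly all genes of their length, while CACNA1C and CACNA1D lie at 0 among long genes.

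Most member sites were called at both dosages. Of the 16 basal sites 13 overlapped a site of the other list, or 81.2% (95% Wilson interval 57.0 to 93.4%), against 64.5% of the whole basal list. Of the 15 sites at the increased dosage 13 did, or 86.7% (62.1 to 96.3%), against 67.9% of that list. These intervals cover counting error over sites only, and both include the share of the whole list. The 5 sites called at 1 dosage were CACNA1A sites 1 and 5 and CACNA1B site 2 at the basal dosage, and CACNA1E site 2 and CACNA1H site 1 at the increased dosage. Their widths were between 99 bp and 499 bp, and none stood earlier in its list than 3573.

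Of the 13 loci called at both dosages, 5 were wider at the basal dosage, 5 were wider at the increased dosage and 3 were equal. The change in log2 width from basal to increased ran from -0.49 at CACNA1A site 2 to 0.42 at CACNA1B site 5. All 13 values lay between the 5th and 95th percentiles of the 3327 pairs of sites that overlapped each other alone, -0.59 and 0.49, so no member stood apart from the list in this. The median width of the member sites was 499 bp at the basal and 549 bp at the increased dosage, against 299 bp over either list, and 6 of 16 and 8 of 15 reached the upper quartile of the lists, 549 bp.

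**Figure D3:**
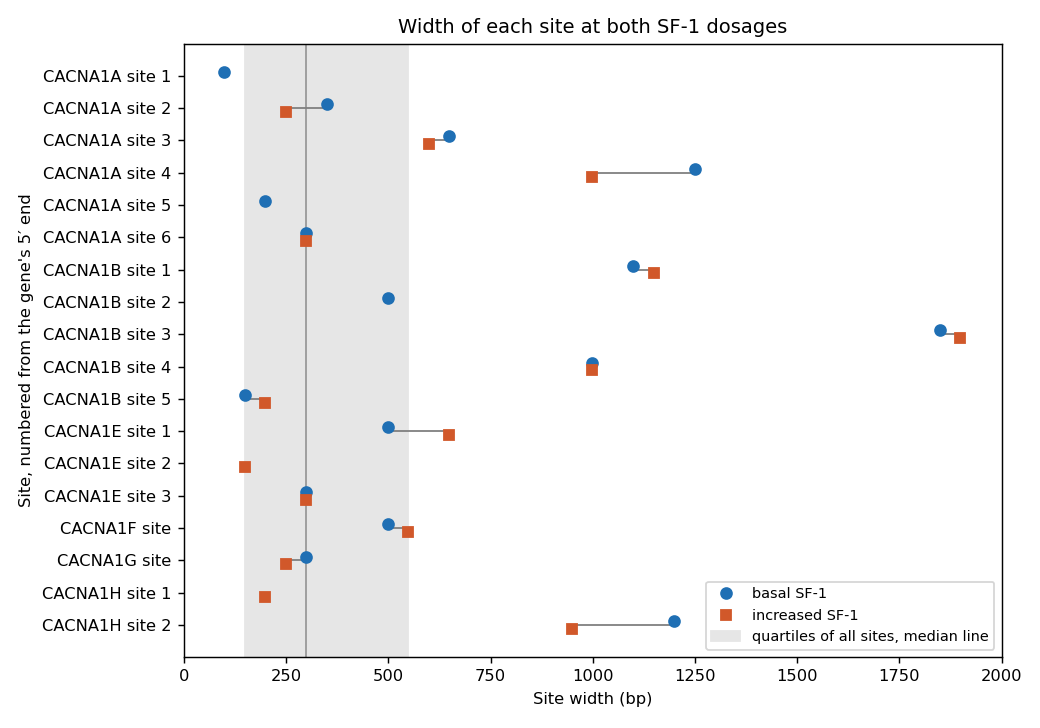
Width in bp of each of the 18 loci at the basal (circles) and the increased (squares) SF-1 dosage, with the quartiles (149 to 549 bp) and the median (299 bp) of all sites shaded. The 3 wide CACNA1B sites, CACNA1A site 4 and CACNA1H site 2 lie at or above 949 bp at each dosage, and loci with a single mark were called at 1 dosage.

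The consensus was found in 11 of 16 basal member sites, or 68.8% (44.4 to 85.8%), and in 11 of 15 at the increased dosage, or 73.3% (48.0 to 89.1%). Over the whole lists the shares were 40.7% and 42.1%. All 11 of these loci were called at both dosages. They were 11 of the 13 shared member sites, against 58.9% and 58.8% of all shared sites in the basal and increased-dosage lists. None of the 3 and 2 member sites found at 1 dosage held it, against 7.56% and 6.78% of such sites in the lists. A match without mismatch was present in 6 sites at each dosage (11.2% and 11.8% of the lists). Windows of the same width 10 kb to either side of the member sites held the consensus in 2 of 32 cases at the basal and 3 of 30 at the increased dosage, against 1.79% and 1.80% of the windows of all sites.

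Of the 9 loci with the consensus inside a member gene, 8 had it in intron 1, 2 or 3 of the MANE Select transcript, the exception being CACNA1E site 3 in intron 34. These 3 introns make up 44.6% of that transcript in CACNA1A, 14.1% in CACNA1B, 28.8% in CACNA1E and 60.5% in CACNA1H. They make up 61.2% in CACNA1C and 48.6% in CACNA1D, where no site was called. Of the 13 matches, 8 ran on the strand of the gene and 5 on the opposite strand. Outside the fixed bases, the base that follows the consensus was A in 10 of 13 and G in 3. The first printed base was G in 11 of 13. Intron position, strand and flanking bases were not counted over the other matches in the lists. These counts thus describe the member sites and the printed matches only.

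The better a stretch of these genes matched the consensus, the more often it lay in a site. In the 10 genes and 10 kb to either side, 6 stretches matched without mismatch, and all 6 lay in a site at both dosages. They are 1 in CACNA1A, 2 in CACNA1B and 1 each at CACNA1F, CACNA1G and CACNA1H. No such stretch exists in or near CACNA1C, CACNA1D, CACNA1E, CACNA1I or CACNA1S in hg19. Of 13 stretches with 1 mismatch 3 lay in a site at each dosage, and of 188 with 2 mismatches 4 lay in a basal site and 3 in a site at the increased dosage. Among these stretches with 2 mismatches, those at CACNA1F and CACNA1H lay in sites that also held a match without mismatch. In the whole genome 816 stretches matched without mismatch, and 74.5% of them lay in a basal and 74.8% in an increased-dosage site. With 1 mismatch 966 and 955 of 8057 did, and with 2 mismatches 0.887% and 0.850% of 87405. By channel type, 8 of the stretches with 1 mismatch were at P/Q/N/R-type genes, 3 at T-type genes and 2 at L-type genes, both of the latter at CACNA1D. CACNA1C had no stretch with 1 mismatch. It held 40 with 2 mismatches (53.5 per Mb searched) and CACNA1D held 21 (41.6 per Mb), and none of these lay in a site. CACNA1E held 30 such stretches (58.2 per Mb), of which 2 lay in a site at each dosage.

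**Figure D4:**
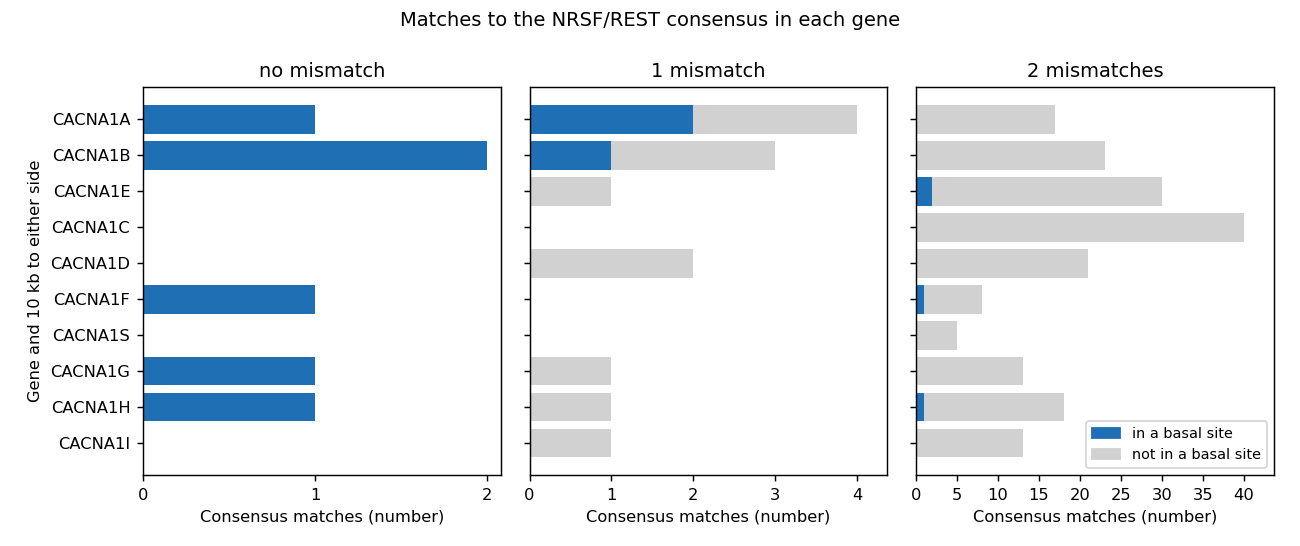
Number of matches to the NRSF/REST consensus in each gene and 10 kb to either side, with no, 1 or 2 mismatches (panels), split into those in a basal site (blue) and those outside (grey). All 6 matches without mismatch lie in a basal site, and of the 40 matches with 2 mismatches at CACNA1C none does.

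The 10 stretches with 1 mismatch that lay in no site are shown so that the base that departs from the consensus can be set beside that of the 3 occupied ones. Capitals again mark the bases equal to the consensus.
CACNA1A (chr19:13412326-13412346, plus strand): ccaaCTGcCCagGGTGCTGct
CACNA1A (chr19:13455460-13455480, minus strand): tactaTGTCCctGGTGCTGat
CACNA1B (chr9:140853327-140853347, plus strand): cctaCTGTCCgtGaTGCTGgc
CACNA1B (chr9:140863570-140863590, plus strand): gcatCTGTCttgGGTGCTGct
CACNA1D (chr3:53674439-53674459, plus strand): attgCTGgCCcaGGTGCTGag
CACNA1D (chr3:53705431-53705451, plus strand): ggctCTGTCtcaGGTGCTGac
CACNA1E (chr1:181500678-181500698, plus strand): aaacCTGTCCatGGaGCTGgg
CACNA1G (chr17:48632840-48632860, plus strand): gctgCTGcCCtaGGTGCTGat
CACNA1H (chr16:1274018-1274038, plus strand): agcaCTGTCCaaGGTGCTcgg
CACNA1I (chr22:40063593-40063613, plus strand): ggttCTGTgCtgGGTGCTGca

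The occupied stretches carried G12T and T4G (CACNA1A sites 2 and 3) and G3C (CACNA1B site 4). Over the whole genome, these members included, 38.4% of the 232 single-mismatch stretches with G12T lay in a basal site, as did 21.3% of 437 with T4G and 36.3% of 322 with G3C. The unoccupied ones carried T4C at CACNA1A and CACNA1G (5.28% of such stretches in the genome in a basal site), C1A at CACNA1A (2.26%), G10A at CACNA1B (0.508%), C6T at CACNA1B and CACNA1D (14.4%), T11A at CACNA1E (0.722%), G15C at CACNA1H (8.89%) and C5G at CACNA1I (1 of 1000 such stretches). The other CACNA1D stretch carried T4G like CACNA1A site 3 and lay in no site, as did most T4G stretches of the genome. The sequence letters of these windows say nothing of chromatin, which these lists do not measure.

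SF-1 recognises a short element, searched here without mismatch on both strands as CAAGGACA, CAAGGCCA or CAAGGTCA. It occurred in 4 of 16 basal and 3 of 15 increased-dosage member sites, against 11.4% and 11.5% of the lists. CACNA1B site 5, most of which has copies elsewhere in the genome, was among these sites at both dosages. CAAGGTCA was found in CACNA1A site 4, from 13552777 to 13552784 of chromosome 19, and in CACNA1A site 5. CAAGGCCA was found at 2 places in CACNA1B site 5, outside any NRSF/REST match, and in CACNA1E site 3. In CACNA1E site 3 it lay inside the match to the NRSF/REST consensus, so a single stretch fits both. No SF-1 word was found in the CACNA1H, CACNA1G and CACNA1F sites.

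Other genes that handle calcium were read from 3 fixed lists. Of the 16 auxiliary channel subunits, which set the traffic and gating of the pore, 7 had a basal site and 8 a site at the increased dosage. The widest basal sites were at CACNA2D4 (1249 bp), CACNA2D3 (1149 bp) and CACNG7 (1149 bp, 5383 bp outside the gene). Of 16 other entry and release channels 4 had a basal site and 4 a site at the increased dosage. The ryanodine receptor genes RYR1 (799 bp) and RYR3 (749 bp) had the widest basal sites and were the genes of this list with a site at both dosages. ITPR2 followed with 349 bp and had none at the increased dosage. Of 10 genes for calcium extrusion 3 had a site at both dosages. They were SLC8A2 and SLC8A3, which encode sodium-calcium exchangers, with widest basal sites of 1349 bp and 549 bp, and ATP2B2, a plasma membrane calcium pump, with 1149 bp and 6 basal sites, as many as CACNA1A. These counts stand beside 13.9% and 13.6% of all protein-coding genes, and like the members these genes differ in length.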

How the data were processed

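Reads were aligned by the authors with ELAND v2 to hg19 (the submitters' processing notes name CASAVA 1.6) and they deposited 1 site list for each NRSF/REST library, with a constant score of 1000 and an order number. The caller's settings are stated for SF-1 sites, and the track names follow CisGenome. The members, gene lists and comparisons were chosen with earlier results of these data known. Starts were converted to a count from 1. Genes came from GENCODE release 44 mapped to hg19 (64477 genes, entries marked as Y copies left out), sequence from GRCh37, whose coordinates are those of hg19. Some genes, among them AKAP17A, ASMT and ASMTL, stayed in under a further identifier with the same length. Sites overlapping by at least 1 bp were shared. Positions within genes used site midpoints and the MANE Select transcript. Words of 32 bases were counted over the main chromosomes on both strands. Named genes were the members, genes at their sites, the up to 3 genes with the widest basal site in each calcium list and the 3 genes closest to the member with the largest summed width. Some genes that hold sites from 10 to 100 kb outside a member were named in addition. No test was made, since there is 1 library per dosage. Depth is unknown. The consensus search, the assignment of sites to genes and the overlap of sites were tested on simulated cases with known answers. The other steps were not tested in this way. Python 3.11.15, numpy 2.4.6, scipy 1.17.1, pysam 0.24.0 and matplotlib 3.10.9 were used.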

Additional observations from a re-analysis of the deposited data

How the results depend on the processing

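No paired analysis was possible because there is 1 library at each SF-1 dosage and no test. Of 138 values under alternatives, 109 stayed within 1.5 times of the count or within the interval of the percentage, and 29 moved. Gene bodies only left 0 L-type sites at either dosage and 1 basal T-type site. Within 100 kb there were 23 sites at the increased dosage, with 4 and 5 L-type and 4 and 5 T-type sites at the basal and increased dosages. The widest 50% of the lists kept 10 basal sites (8 P/Q/N/R-type, 1 T-type) and 8 at the increased dosage (6 and 1), and the first 50% by order number kept 9 (7 and 1) and 8 (6 and 1). With these first sites 100% were shared at both dosages, and with the widest sites 100% were shared at the increased dosage. Without a mismatch the consensus was in 37.5% and 40.0% of member sites, and among the widest in 90.0% and 100%. Narrow or late sites are left out by construction in these settings. The same shares over all widest or first sites of the lists are not given here. The percentages for the widest and first member sites thus describe those sites only. Without sites in another protein-coding gene, an alternative added after the data had been seen like the one on single-copy words, 0 L-type sites remained at either dosage. The number of genes with a site ran from 4 of 10 with gene bodies only to 9 of 10 within 100 kb, at each dosage. Both ends lie at the limit of 1.5 times of 6. The share of all protein-coding genes is given for the 10-kb limit only. A wider limit can only add genes with a site, among the members as among all genes. The lists hold called sites only, so weaker binding at CACNA1C, CACNA1D, CACNA1I and CACNA1S was not measurable here.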

Other observations

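The member sites differed widely in base composition. CACNA1B site 1, which begins within the first transcribed kilobase, had a GC content of 69.3% in the basal interval with 97 CpG dinucleotides in 1099 bp, and the site in SYP beside CACNA1F had 73.1% with 54 CpG in 499 bp. CACNA1A sites 2 and 3, deep in intron 1, had 1 and 7 CpG, the latter at a GC content of 43.5%, and were called at both dosages too. The median over the basal list was 45.5%. In the basal list the match with the fewest mismatches lay 8 bp from the midpoint of the sites at CACNA1E (site 1) and CACNA1F, and 226 bp from the midpoint of CACNA1B sites 3 and 4.

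Sites also lay further from the members than 10 kb, where assignment to a channel gene is less certain. Upstream of CACNA1B a site 699 bp wide in the basal list and 649 bp in the other lay 48.5 kb away, inside EHMT1, which encodes a histone methyltransferase. Upstream of CACNA1I a second site, 599 bp wide in both lists, lay 91.9 kb away in MGAT3. Beyond CACNA1E a narrow site of 199 bp and 149 bp lay 98.6 kb from the 3′ end. No site was called within 100 kb of CACNA1S at either dosage.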
